A study of Mus musculus with 6 samples.

Results

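The interferon regulatory factors (IRFs) are a family of transcription factors, and 8 of its members were taken by gene name from the deposited expression table of 22248 genes. These are *Irf1*, *Irf2*, *Irf3*, *Irf4*, *Irf5*, *Irf7*, *Irf8* and *Irf9*. The table holds RNAseq values of unstimulated bone-marrow-derived macrophages (BMDMs), which are bone marrow cells grown into macrophages in medium with macrophage colony-stimulating factor. The comparison asks how the loss of CITED2, a transcriptional coregulator that binds CBP and p300, alters the RNA of these cells at rest. Control libraries (n = 3) came from Lyz2cre mice, which carry a single Cre allele at *Lyz2* and unaltered *Cited2*. CITED2-deficient libraries (n = 3) came from Cited2 fl/fl:Lyz2cre mice, in which both *Cited2* alleles are floxed and which carry the same single Cre allele. All mice were on the C57BL/6 strain, and the labels place them at postnatal week 10, whereas the study's methods name a younger age for BMDM cultures. Because *Lyz2*, a myeloid gene, drives Cre, recombination in a culture depends on the cells that switch that locus on, and both groups carry the altered *Lyz2* locus.

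Interferon regulatory factors share a DNA-binding domain that reads GAAA repeats in promoters and enhancers of genes for antiviral defence, antigen presentation and myeloid identity. IRF3 and IRF7 are switched on by phosphorylation after nucleic acid sensing and drive the type I interferon genes. IRF9 joins STAT2 in ISGF3, the complex that carries the interferon receptor signal to the genome, and *Irf7* itself is a classical target of that complex. IRF1 is an activator induced by interferon gamma, and IRF2 occupies similar sites, often as a repressor. IRF5 drives inflammatory cytokine genes downstream of MyD88, IRF8 directs the macrophage and dendritic cell lineages, and IRF4 is tied to alternative macrophage activation.

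*Cited2* was 75.5 ± 3.79 FPKM (fragments per kilobase of transcript, scaled to the mapped fragments of the library; mean ± SD, n = 3) in control BMDMs and 8.01 ± 1.10 FPKM in CITED2-deficient BMDMs, with no overlap. Macrophage genes were abundant in every library, with a summed FPKM of 8 markers of 5671 to 5724 in controls and 5050 to 5160 in CITED2-deficient BMDMs. By the limma test described below, 6 of these 8 markers were lower, 1 was higher and 1 did not pass. Over all tested genes 16.7% were higher and 34.6% lower, shares to set beside all marker counts given here. *Adgre1*, *Csf1r* and *Cd68* led the sum, while *Lyz2*, which has a near-identical neighbour in *Lyz1*, was 31.3 ± 1.03 and 9.75 ± 0.333 FPKM. *Mrc1* was also lower (353 ± 4.09 and 103.9 ± 5.66 FPKM), and *Fcgr1* was higher (172 ± 0.793 and 482 ± 17.2 FPKM). Markers of other cells also moved with genotype. All 4 monocyte markers were higher (summed FPKM 36.3 to 40.3 in controls, 135 to 151 in CITED2-deficient BMDMs), as were all 6 tested of 8 fibroblast markers (42.4 to 50.6, then 170 to 540, the highest in CITED2-deficient replicate 1). Of 7 neutrophil markers, 5 were lower and 1 was higher (summed FPKM 726 to 795, then 658 to 777). The table holds no gene at 0 in all 6 libraries, and the markers *Klk1* (plasmacytoid dendritic cells), *Cd209a* (conventional dendritic cells) and *Gzma* (T and NK cells) are not in it. The part of other cells in the results on IRFs was not tested. In bulk RNA fewer cells of a type and less RNA per cell cannot be told apart. The depth was 17289286 to 18952077 fragments in control and 22583995 to 26100410 in CITED2-deficient libraries. The series' text gives 3 mice, and nothing states whether each library came from its own mouse, so p-values measure the spread between these libraries.

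The start regions of 5 members are shown. Those of *Irf1*, *Irf2* and *Irf8* held exact matches to DNA words that STATs and IRFs read. Those of *Irf7* and *Irf4*, the members with the largest rise and the largest fall, held no exact match. All 8 members matched the RefSeq promoter table (build GRCm38.p6, which is mm10), and each stretch runs 5' to 3' on the gene's strand up to the first annotated start. Capitals mark matches, on either strand, to ISRE (GAAANNGAAA, the site of ISGF3), EICE (GGAANNGAAA, the joint site of PU.1 and IRF4 or IRF8) or GAS (TTCNNNGAA, the site of STAT dimers). The stretches lie at chr7:141266482-141266674 (minus strand, *Irf7*), chr11:53769764-53770013 (*Irf1*), chr8:46739495-46739731 (*Irf2*), chr8:120736108-120736357 (*Irf8*) and chr13:30748983-30749225 (*Irf4*), the last 4 on the plus strand.
Irf7: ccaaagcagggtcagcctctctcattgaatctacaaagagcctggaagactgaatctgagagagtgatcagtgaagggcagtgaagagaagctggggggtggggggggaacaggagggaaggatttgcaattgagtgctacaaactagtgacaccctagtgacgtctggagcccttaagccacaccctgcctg
Irf1: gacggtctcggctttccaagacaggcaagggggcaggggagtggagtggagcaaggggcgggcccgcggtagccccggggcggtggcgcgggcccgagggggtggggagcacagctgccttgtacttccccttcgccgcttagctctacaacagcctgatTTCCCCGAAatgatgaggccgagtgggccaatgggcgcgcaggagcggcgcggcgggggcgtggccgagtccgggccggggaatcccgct
Irf2: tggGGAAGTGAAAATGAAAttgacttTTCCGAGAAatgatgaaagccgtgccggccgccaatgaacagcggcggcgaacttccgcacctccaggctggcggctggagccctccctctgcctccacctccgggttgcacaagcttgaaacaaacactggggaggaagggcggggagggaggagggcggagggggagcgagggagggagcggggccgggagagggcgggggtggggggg
Irf8: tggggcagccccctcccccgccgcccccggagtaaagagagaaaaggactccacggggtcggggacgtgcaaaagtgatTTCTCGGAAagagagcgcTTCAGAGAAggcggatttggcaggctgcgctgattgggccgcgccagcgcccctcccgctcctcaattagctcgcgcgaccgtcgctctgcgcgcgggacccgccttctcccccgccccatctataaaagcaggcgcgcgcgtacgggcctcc
Irf4: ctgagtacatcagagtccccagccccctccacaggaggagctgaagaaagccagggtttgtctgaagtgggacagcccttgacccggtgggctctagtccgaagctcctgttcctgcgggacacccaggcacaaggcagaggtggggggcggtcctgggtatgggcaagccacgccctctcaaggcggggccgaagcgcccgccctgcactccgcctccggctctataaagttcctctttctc
The window searched ran from 250 bases before to 50 bases after each RefSeq start. *Irf1* held 1 GAS match, TTCCCCGAA, whose first base lies 90 bases before the start. *Irf8* held 2 GAS matches, TTCTCGGAA at 171 and TTCAGAGAA at 153 bases before the start. *Irf2* held all 3 motifs: an EICE match (GGAAGTGAAA, 247 bases before the start) that overlaps an ISRE match (GAAAATGAAA, 241 bases) and a GAS match (TTCCGAGAA, 224 bases). The windows of *Irf3*, *Irf4*, *Irf5*, *Irf7* and *Irf9* held no exact match. The RefSeq starts of *Irf9* lie 414 and 1008 bases inside the gene, so the bases before its first annotated start were not searched. The RefSeq start of *Irf7* lies 57 bases inside the gene, so only 193 bases before its first annotated start were searched. A search for exact matches in such windows cannot show that a gene lacks a site. Of 32851 RefSeq windows of this length, 3.44% held ISRE, 2.72% EICE and 8.3% GAS. Counted per gene over all its windows, the shares of 27025 genes were 3.99%, 3.16% and 9.55%.

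The RNA level of 7 of the 8 members differed between CITED2-deficient and control BMDMs. *Irf7*, *Irf1*, *Irf9*, *Irf2* and *Irf5* were higher, *Irf3* and *Irf4* were lower, and *Irf8* did not pass the test. Changes are log2 fold changes of FPKM + 1 from a limma fit over the 11687 genes whose FPKM averaged 1 or more, and a gene passed with a Benjamini-Hochberg adjusted p under 0.05 over all of them. In that fit 51.3% of all genes passed (16.7% higher, 34.6% lower), against 87.5% of the members. The same 7 members had groups that did not overlap, which was so for 59.9% of all tested genes (19% higher, 40.9% lower). The median log2 fold change was 0.29 over the members and -0.10 over all tested genes. Under median-ratio scaling between libraries 44.4% of genes passed (23.1% higher, 21.3% lower), so that higher calls made up 52.0% of all calls in place of 32.5%, and the direction of the 7 members held.

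**Figure D1:**
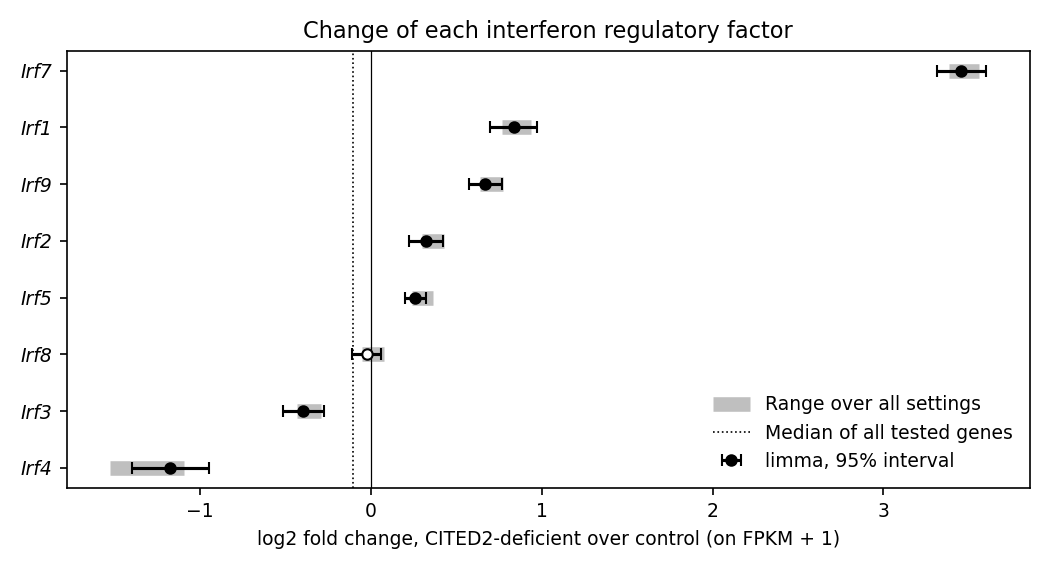
Log2 fold change of each member, CITED2-deficient over control (FPKM + 1), with its 95% interval from limma. Filled points passed the threshold, the open point (*Irf8*) did not, grey bands span all settings tried, and the dotted line is the median of all tested genes (-0.10). *Irf7*, at 3.46, stands apart from the other 7 members, which lie between -1.17 and 0.84.

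*Irf7* (ENSMUSG00000025498, chr7:141262706-141266481, minus strand), the amplifier of the type I interferon response, was 74.2, 66.4 and 80.4 FPKM in the control libraries. It was 775, 839 and 835 FPKM in the CITED2-deficient libraries. The lowest CITED2-deficient library was thus far above the highest control, and the means differed 11.1-fold (73.7 ± 7.02 against 816 ± 35.5 FPKM, n = 3 each). The log2 fold change was 3.46 (SE 0.06, 95% interval 3.31 to 3.60, limma adjusted p = 8.88e-10), which ranks 14 from the top among the 11687 genes. The values rest on 1526 to 2026 fragments per control library and 25196 to 28972 per CITED2-deficient library. Plasmacytoid dendritic cells also hold much *Irf7*. Their markers *Siglech*, *Ly6d* and *Ccr9* stayed under 1 FPKM in both groups. Of the 3 tested markers, *Bst2*, which is also an interferon-induced gene, rose from 256 ± 3.34 to 817 ± 57.3 FPKM. *Tcf4* (101 ± 3.79 and 95.2 ± 2.25 FPKM) and *Cox6a2* (2.19 ± 0.356 and 1.59 ± 0.117 FPKM) did not pass. The summed FPKM of the list (355 to 366 in controls, 866 to 975 in CITED2-deficient BMDMs) was mostly *Bst2*. The part of plasmacytoid dendritic cells in the *Irf7* values was not tested.

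*Irf3* (ENSMUSG00000003184, chr7:44997648-45002848, plus strand), the constitutive partner that acts first after nucleic acid sensing, moved the other way. It was 49.6, 52.6 and 55.5 FPKM in controls and 41.8, 39.3 and 38.3 FPKM in CITED2-deficient BMDMs. All 3 CITED2-deficient libraries lay below the lowest control, at 0.757 times the control mean (52.6 ± 2.98 to 39.8 ± 1.80 FPKM). On the log2 scale *Irf3* fell by 0.39 (SE 0.05, 95% interval -0.51 to -0.27, limma adjusted p = 0.000239). Within each library the ratio of *Irf7* to *Irf3* FPKM, which does not depend on the scaling between libraries, was 1.40 ± 0.124 in controls and 20.6 ± 1.76 in CITED2-deficient BMDMs.

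The adaptors and kinases that act upstream of IRF3, IRF5 and IRF7 moved in both directions. Of 18 genes 10 were higher, 4 were lower and 4 did not pass, with a median log2 fold change of 0.18. Over all tested genes 16.7% were higher and 34.6% lower, with a median of -0.10. The largest rises were in *Ticam1* (TRIF, the TLR3 and TLR4 adaptor; 10.8 ± 0.439 to 16.1 ± 0.358 FPKM, 0.53 on the log2 scale) and *Irak2* (a kinase of the MyD88 complex; 32.2 ± 1.04 to 46.7 ± 0.806 FPKM, 0.53). The largest falls were in *Ikbke* (an IRF3 and IRF7 kinase; 101.7 ± 5.71 to 82.1 ± 3.22 FPKM, -0.30) and *Ticam2* (TRAM; 11.8 ± 0.244 to 9.65 ± 0.834 FPKM, -0.27). *Tbk1*, the other kinase of IRF3, was 107 ± 0.880 and 107 ± 2.46 FPKM (limma adjusted p = 0.939). Under median-ratio scaling this group had 12 higher and 1 lower, with *Ticam2* no longer past the threshold and *Tbk1* higher by 0.11.

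The interferon genes were almost absent from the table. Of 20 interferon genes on the list, *Ifnb1* and *Ifnk* are listed and neither reached the level that was tested. *Ifnb1*, which encodes interferon beta, had 0 fragments in every control library and 5, 2 and 5 fragments in the CITED2-deficient libraries. *Ifnk* had 0, 1 and 0, then 0, 0 and 1 fragments. With counts this low no fold change is given.

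*Irf9* (ENSMUSG00000002325, chr14:55603571-55610030, plus strand), the DNA-binding subunit of ISGF3, was 40.0, 42.5 and 43.2 FPKM in controls. It was 67.8, 68.9 and 65.2 FPKM in CITED2-deficient BMDMs, so that the groups were well apart. The means were 41.9 ± 1.63 and 67.3 ± 1.90 FPKM, a ratio of 1.61, and the log2 fold change was 0.67 (SE 0.04, 95% interval 0.58 to 0.77, limma adjusted p = 1.73e-06). Its partner STAT2 rose more at the RNA level. *Stat2* was 60.4, 56.6 and 60.9 FPKM in controls and 244, 268 and 259.8 FPKM in CITED2-deficient BMDMs (log2 fold change 2.10, SE 0.04, limma adjusted p = 1.45e-09). Within each library the ratio of *Irf9* to *Stat2* went from 0.707 ± 0.0438 to 0.262 ± 0.0140, with no overlap.

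The receptors and kinases that feed ISGF3 did not share this rise. Of 9 genes on the list of receptors, JAKs and STATs, 3 were higher, 4 lower and 2 did not pass (median log2 fold change 0.020). The shares over all tested genes were 16.7% higher and 34.6% lower. *Ifngr1*, the ligand-binding chain of the interferon gamma receptor, fell from 250.1 ± 3.59 to 132 ± 3.88 FPKM (-0.92, SE 0.03, limma adjusted p = 3.02e-08), a change kept under both other scalings. *Ifnar2*, a chain of the type I interferon receptor, fell from 89.8 ± 0.490 to 72.6 ± 1.34 FPKM (-0.30, limma adjusted p = 4.65e-05). Under median-ratio scaling the split of this list was 5 higher and 3 lower.

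*Irf1* (ENSMUSG00000018899, chr11:53770014-53778374, plus strand), the activator of the interferon gamma programme, was 72.1, 73.6 and 73.2 FPKM in controls and 119, 144 and 131 FPKM in CITED2-deficient BMDMs. The controls were tightly grouped (73.0 ± 0.736), and the CITED2-deficient libraries (131 ± 12.8) spread more but all lay higher, 1.80-fold on average. The log2 fold change was 0.84 (SE 0.06, 95% interval 0.70 to 0.97, limma adjusted p = 4.99e-06). *Irf2* (ENSMUSG00000031627, chr8:46739732-46847458, plus strand), which competes for the same sites, was 58.9, 61.0 and 61.2 FPKM in controls and 71.3, 78.5 and 78.0 FPKM in CITED2-deficient BMDMs. Its rise was smaller, 1.26-fold (60.4 ± 1.26 to 75.9 ± 4.0 FPKM), with a log2 fold change of 0.33 (SE 0.04, 95% interval 0.23 to 0.42, limma adjusted p = 0.000269). The ratio of *Irf1* to *Irf2* within a library was 1.21 ± 0.0147 in controls and 1.73 ± 0.0976 in CITED2-deficient BMDMs. CITED2-deficient replicate 1, the library with the highest fibroblast marker sum, had the lowest *Irf1*, *Irf2*, *Irf4*, *Irf5*, *Irf7* and *Irf8* and the highest *Irf3* of its group. Leaving that library out gave log2 fold changes of 0.91 for *Irf1*, 0.37 for *Irf2*, 3.49 for *Irf7* and 0.67 for *Irf9*. For *Irf5*, *Irf3* and *Irf4* they were 0.28, -0.43 and -1.13, with the same 7 members past the threshold. Replicates 2 and 3 of that group kept fibroblast marker sums of 170 and 171 FPKM, against 42.4 to 50.6 in controls. The part of fibroblast RNA in the IRF values was not tested.

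*Irf5* (ENSMUSG00000029771, chr6:29526625-29541871, plus strand), the member linked to inflammatory cytokines, was the most abundant IRF of control BMDMs per length of transcript. It was 299, 298 and 303 FPKM in controls and 351, 360.3 and 369 FPKM in CITED2-deficient BMDMs. The groups did not overlap, although the rise was only 1.20-fold (300.0 ± 2.53 to 359.9 ± 8.81 FPKM; log2 fold change 0.26, SE 0.03, 95% interval 0.20 to 0.32, limma adjusted p = 5.86e-05). The rise in *Irf5* stayed past the threshold in all 16 alternative settings.

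*Irf8* (ENSMUSG00000041515, chr8:120736358-120756694, plus strand), the lineage factor of macrophages and dendritic cells, was 209, 210.5 and 210.0 FPKM in controls and 196, 209 and 215 FPKM in CITED2-deficient BMDMs. The groups overlapped. The log2 fold change was -0.02 (SE 0.04, 95% interval -0.11 to 0.06, limma adjusted p = 0.634). The sign was not stable, since it turned under median-ratio scaling (0.081) and without CITED2-deficient replicate 1 (0.016). *Irf4* (ENSMUSG00000021356, chr13:30749226-30766976, plus strand), the closest relative of *Irf8*, was 6.01, 6.18 and 5.62 FPKM in controls and 1.91, 2.39 and 1.95 FPKM in CITED2-deficient BMDMs. It was the lowest of the 8 members in both groups and the one that fell most, 2.85-fold (5.94 ± 0.286 to 2.09 ± 0.266 FPKM). On the log2 scale of FPKM + 1, which understates changes of low genes, it fell by 1.17 (SE 0.10, 95% interval -1.39 to -0.95, limma adjusted p = 1.30e-05), and limma-voom on the recovered fragments gave -1.52. These levels rest on 351 to 374 fragments per control library and 160 to 178 per CITED2-deficient library. The ratio of *Irf8* to *Irf4* within a library rose from 35.4 ± 1.74 to 99.9 ± 11.5. Markers of other cells that hold *Irf8* or *Irf4* are given beside these values, and their part in them was not tested. The 4 monocyte markers, all higher, summed to 36.3 to 40.3 FPKM in controls and 135 to 151 in CITED2-deficient BMDMs. The 5 listed markers of conventional dendritic cells summed to 0.703 to 1.05 FPKM in controls and 2.12 to 2.18 in CITED2-deficient BMDMs, with none high enough to test. The 6 B and plasma cell markers, mostly *Jchain* (13.8 ± 2.04 and 16.5 ± 2.46 FPKM), summed to 13.7 to 18.8 and 16.9 to 21.1 FPKM, and neither of the 2 tested passed. The 5 listed T and NK cell markers summed to 0.0728 to 0.481 and 0.169 to 0.866 FPKM.

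**Figure D2:**
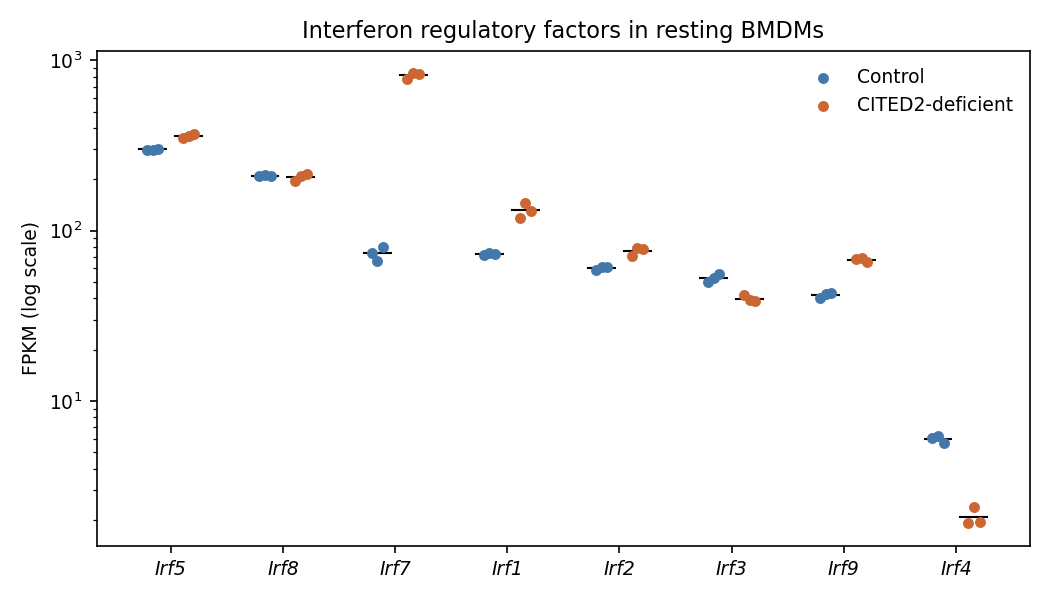
FPKM (log axis) of each member in each of the 6 libraries, with the group mean as a bar. Control and CITED2-deficient points are apart for every member except *Irf8*, and the order of levels changes where *Irf7* passes *Irf5* (816 against 359.9 FPKM) in CITED2-deficient BMDMs.

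The order of the levels per length differed between the groups. In control BMDMs it ran *Irf5*, *Irf8*, *Irf7*, *Irf1*, *Irf2*, *Irf3*, *Irf9* and *Irf4*, and only *Irf7* and *Irf1* overlapped as neighbours. In CITED2-deficient BMDMs it ran *Irf7*, *Irf5*, *Irf8*, *Irf1*, *Irf2*, *Irf9*, *Irf3* and *Irf4*, with every neighbouring pair separate. With the lengths of the deposited values *Irf7* went from the third place to the first, and *Irf9* passed *Irf3*. The length by which the authors' values are divided matters for such an order, since the members have 3 (*Irf4*) to 13 (*Irf3*, *Irf7*) annotated transcripts. *Irf7* took the fourth place in controls with the longest transcript of each gene and the fifth with the mean length of protein-coding transcripts. With the longest transcript *Irf2* fell behind *Irf3* and *Irf9* in controls and behind *Irf9* in CITED2-deficient BMDMs, and with the protein-coding length it took the third place in controls. Both other lengths kept *Irf5* and *Irf8* in the lead in controls, *Irf7*, *Irf5* and *Irf8* in that order in CITED2-deficient BMDMs, and *Irf4* last in both.

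The 8 members together summed to 808, 811 and 832 FPKM in controls and 1624, 1742 and 1733 FPKM in CITED2-deficient BMDMs, a 2.08-fold rise (817 ± 13.0 to 1699 ± 65.5). Most of that rise was *Irf7*, since the other 7 members summed to 743 ± 8.73 and 883 ± 30.1 FPKM, a 1.19-fold rise. The share of the sum held by *Irf7*, which is free of any scaling between libraries, went from 9.01% ± 0.753 to 48.0% ± 0.240, a gain of 39.0 percentage points. Every other member held a smaller share. *Irf5* went from 36.7% to 21.2%, *Irf8* from 25.7% to 12.2%, *Irf3* from 6.43% to 2.35% and *Irf4* from 0.727% to 0.123%. Like *Irf5*, the remaining members that rose by less than *Irf7* also held smaller shares, *Irf1* from 8.93% to 7.73%, *Irf2* from 7.39% to 4.47% and *Irf9* from 5.13% to 3.96%. Shares within a library sum to a fixed total, so a gain by *Irf7* lowers the shares of the rest. All 8 shares were separate between groups, with an exact two-sided permutation p = 0.1 each (0.1 after adjustment over the 8), which is the smallest that 3 against 3 libraries allow.

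Among the other 7 members alone, *Irf5* held an equal part of the sum in both groups within the spread of replicates (40.4% ± 0.336 and 40.8% ± 0.766). *Irf1* went from 9.81% ± 0.0747 to 14.9% ± 1.02 and *Irf9* from 5.63% ± 0.156 to 7.63% ± 0.365. *Irf8* went from 28.2% ± 0.241 to 23.4% ± 0.484 and *Irf3* from 7.07% ± 0.319 to 4.51% ± 0.359. The unequal change among the members was thus visible without *Irf7* and without any scaling between libraries.

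**Figure D3:**
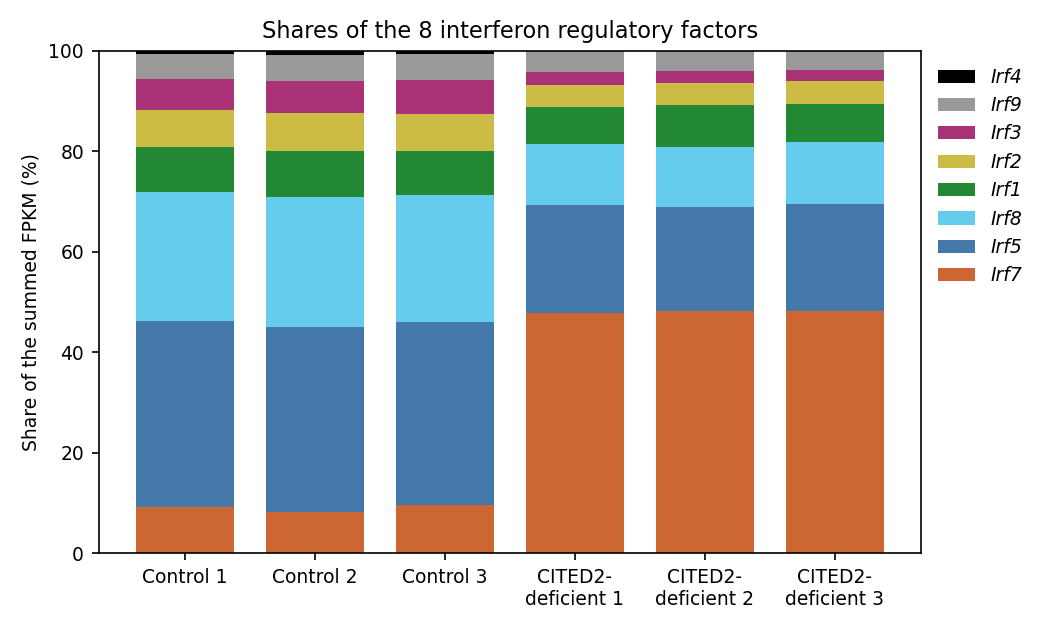
Share (%) of each member in the summed FPKM of the 8 members, 1 bar for each library. *Irf7* fills 9.01% on average in the 3 control bars and 48.0% in the 3 CITED2-deficient bars, and the replicates of each group look alike.

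The genes that IRF proteins are known to act on were described next, from lists taken from textbook knowledge and chosen with earlier results of these data known. The counts of all these lists are to be set beside the shares over all tested genes, 16.7% higher and 34.6% lower. All 15 genes induced through ISGF3, IRF3 and IRF7 were higher, with a median log2 fold change of 3.17. *Ifi44*, an antiviral gene, went from 4.60 ± 0.588 to 103 ± 7.40 FPKM (4.22) and *Ifit2*, which binds viral RNA, from 39.1 ± 1.86 to 544 ± 55.0 FPKM (3.76). Of 14 genes induced through IRF1, 13 were higher and 1 was lower (median 1.30). *Zbp1*, a sensor of Z-form nucleic acid, rose from 12.4 ± 1.79 to 84.1 ± 8.14 FPKM (2.68) and *Gbp2*, a guanylate-binding protein, from 11.0 ± 1.36 to 65.8 ± 10.7 FPKM (2.47). *Ciita*, the master regulator of MHC class II genes, was the exception and fell from 8.73 ± 1.12 to 5.15 ± 0.449 FPKM (-0.66, limma adjusted p = 0.000592).

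All 3 genes induced through IRF2 were higher, led by *Tlr3*, the endosomal sensor of double-stranded RNA (6.57 ± 0.405 to 15.9 ± 0.379 FPKM, 1.16), and *Casp4*, the caspase that senses cytosolic LPS (19.2 ± 0.615 to 41.6 ± 2.77 FPKM, 1.07). Of 7 tested genes induced through IRF8, 5 were higher, 1 was lower and 1 did not pass (median 0.31). *Cybb*, the catalytic subunit of the phagocyte oxidase, rose from 725 ± 10.1 to 1394 ± 34.0 FPKM (0.94), and *Nlrc4*, an inflammasome scaffold, fell from 4.16 ± 0.217 to 2.39 ± 0.132 FPKM (-0.60). Of 6 cytokine genes induced through IRF5, 2 reached the level tested and both were higher, *Tnf* (5.37 ± 0.600 to 9.57 ± 0.401 FPKM, 0.73) and *Il1b* (1.75 ± 0.243 to 3.52 ± 0.284 FPKM, 0.72). Of 6 genes induced through IRF4, 2 were tested and both were lower. *Mrc1*, the mannose receptor, fell from 353 ± 4.09 to 103.9 ± 5.66 FPKM (-1.76, limma adjusted p = 2.19e-09). *Chil3* fell from 233 ± 17.6 to 207 ± 12.6 FPKM (-0.17), a call lost under median-ratio scaling (limma adjusted p = 0.394). Many of these genes answer to several IRFs and to STATs, so a list is not a readout of its member alone.

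The partners of the IRFs moved in both directions. Of 10 tested partners and cofactors, 4 were higher, 3 lower and 3 did not pass (median -0.02). Under median-ratio scaling 4 were higher and 2 lower (median 0.080). For this list and the next, the shares over all tested genes were 16.7% higher and 34.6% lower (median -0.10). *Batf2*, an AP-1 family partner of IRF1, rose from 6.26 ± 0.816 to 13.6 ± 1.41 FPKM (1.01, limma adjusted p = 3.89e-05) and *Ep300*, the p300 acetyltransferase, from 102 ± 6.14 to 117 ± 5.15 FPKM (0.20). *Irf2bp2*, a corepressor that binds IRF2, fell from 50.8 ± 0.647 to 38.6 ± 0.645 FPKM (-0.39) and *Batf*, the partner of IRF4, from 6.30 ± 0.465 to 4.52 ± 0.758 FPKM (-0.41). Of 12 negative regulators 5 were higher, 3 lower and 4 did not pass (median 0.074). The largest rise was in *Usp18*, which removes ISG15 and blocks the type I receptor (21.9 ± 2.62 to 112 ± 5.30 FPKM, 2.30) and is also on the ISGF3 list. *Socs1*, an inhibitor of JAK kinases, rose from 0.587 ± 0.0761 to 1.67 ± 0.364 FPKM (0.74). *Eif4ebp2*, a translational repressor that can hold back *Irf7* mRNA, fell from 67.8 ± 0.468 to 44.3 ± 1.95 FPKM (-0.60), and *Foxo3*, a transcriptional repressor of *Irf7*, from 48.8 ± 1.22 to 37.1 ± 0.748 FPKM (-0.39).

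**Figure D4:**
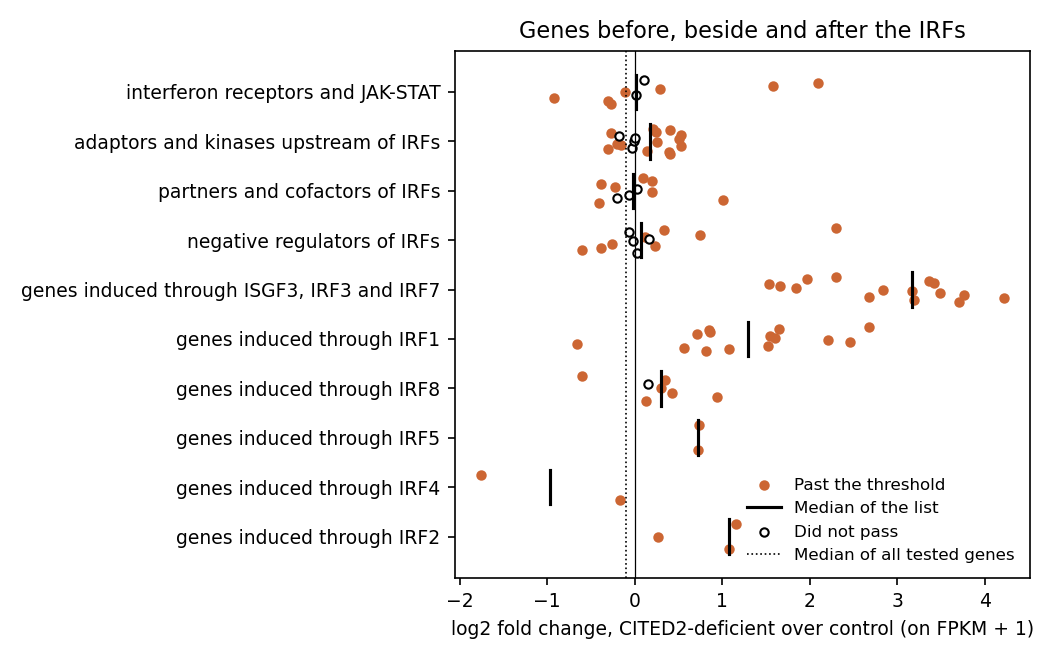
Log2 fold change (CITED2-deficient over control, FPKM + 1) of each tested gene on the lists of genes before, beside and after the IRFs, with the median of each list as a bar and that of all tested genes as a dotted line. The 15 genes induced through ISGF3, IRF3 and IRF7 all lie above 1.5, while the receptor, adaptor, partner and regulator lists have medians between -0.02 and 0.18.

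Over all lists, 91 genes were tested and 77 passed (84.6%), 59 higher and 18 lower, with a median log2 fold change of 0.34. Over all tested genes 51.3% passed (16.7% higher, 34.6% lower), with a median of -0.10. Under median-ratio scaling 6 of these calls were lost and 6 gained, and none turned direction.

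The genes closest to *Irf7* in their profile over the 6 libraries, by Euclidean distance of log2 values centred on each gene's mean, were *Oasl1* (distance 0.085), *Ifit3* (0.20) and *Ifit3b* (0.21). *Oasl1*, which has been described as a brake on the translation of *Irf7* mRNA, was 13.7, 12.7 and 14.9 FPKM in controls and 145, 163 and 163 FPKM in CITED2-deficient BMDMs. Its log2 fold change was 3.42, against 3.49 for *Ifit3* and 3.53 for *Ifit3b*. The points share the 2 groups, so the distance mostly compares the size of the change.

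The genes next to the members on the chromosome were compared in the same way. *Phrf1*, which meets *Irf7* tail to tail with 45 shared bases on the opposite strand, was 30.8 ± 2.66 and 30.6 ± 0.338 FPKM (log2 fold change -0.01, limma adjusted p = 0.941). *Rnf31*, a subunit of the LUBAC ubiquitin ligase that overlaps *Irf9* by 123 bases on the same strand, rose from 22.2 ± 0.866 to 37.9 ± 3.12 FPKM (0.74, limma adjusted p = 1.42e-05). *Gm16675*, a noncoding gene on the opposite strand 217 bases from *Irf2*, whose start lies in the stretch shown for *Irf2*, went from 1.41 to 3.65 FPKM (0.95, limma adjusted p = 0.000103). *Gm12216*, 5044 bases from *Irf1*, went from 0.708 to 1.87 FPKM (0.76, limma adjusted p = 0.0180). *Tnpo3* overlaps *Irf5* by 1045 bases and *Bcl2l12* overlaps *Irf3* by 1065 bases, both on the opposite strand. Neither passed (limma adjusted p = 0.0835 and 0.131), nor did *Scaf1*, 100 bases from *Irf3* (limma adjusted p = 0.326). The other neighbours and overlapping genes that are in the table were below the level tested, among them *Gm17334*, which overlaps *Irf1* by 907 bases. *Irf8* lies within the annotated read-through gene *Gm20388*, which is not in the table analysed here, so reads shared between them could not be separated.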

How the data were processed

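The 6 RNAseq libraries were grouped by the sample titles. The authors made stranded libraries from total RNA after removal of ribosomal RNA, mapped reads to mm10 with STAR and deposited one FPKM value per gene and library from Cuffdiff with a GENCODE annotation. The sources used here name no tool version and no annotation release. FPKM are scaled to library size, so large changes in abundant genes shift all others.

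In R 4.3.3, limma 3.58.1 compared the groups on log2(FPKM + 1) in the 11687 genes whose FPKM averaged 1 or more. The prior variance followed expression, and p-values were Benjamini-Hochberg adjusted over all of them. Intervals use the moderated SE. No fold threshold was set. Fragment numbers were recovered with mean transcript lengths of GENCODE vM21, and 96.1% of 22239 matched genes gave values within 0.02 of whole numbers in all 6 libraries. The Cuffdiff test was left out, since it works on alignments. Shares were compared by exact permutation over libraries.

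The members, lists and tests were chosen with earlier results of these data known. Named genes are all members, *Stat2*, up to 2 largest rises and falls past the threshold in each list, neighbours of members, and the 3 profiles nearest to *Irf7*, less an item not reported here. *Ifnb1*, *Ifnk*, *Tbk1* and markers named singly were added after their values were seen. Same-numbered libraries did not deviate together (r = 0.014, 0.0078 and 0.040), so the numbers were not used as pairs.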

Additional observations from a re-analysis of the deposited data

How the results depend on the processing

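The 7 members past the threshold stayed past it, in the same direction, in each of the 16 alternatives in which they were tested: each library left out in turn, scaling by median ratios or quantiles, pseudocounts of 0.1 and 0.5, no filter or an average FPKM of 5 or more, a flat variance prior, weighted libraries, a replicate block, and limma-voom on recovered fragments. The exception is *Irf4*, which was not tested with the filter at 5, where 6 members passed. The largest limma adjusted p of these 7 in any alternative was 0.00322 (*Irf2*). Log2 fold changes ranged from 3.38 to 3.56 for *Irf7*, 0.77 to 0.94 for *Irf1*, 0.64 to 0.77 for *Irf9*, 0.30 to 0.43 for *Irf2*, 0.24 to 0.37 for *Irf5*, -0.43 to -0.29 for *Irf3* and -1.52 to -1.09 for *Irf4*. *Irf8* passed in none (limma adjusted p 0.133 to 0.733), and its sign turned under median-ratio scaling (0.081) and among fits without 1 library (-0.052 to 0.016), the cause of which was not tested. With the replicate block all 7 members still passed, and the calls over all genes numbered 5708 in place of 5994. Of the genes on the pathway lists 73 to 80 passed. The gain of *Irf7* in the share of the family was between 38.6 and 39.3 percentage points with each library left out, and 38.8 points on recovered fragments, which are not divided by length. On recovered fragments the shares of *Irf2*, *Irf3*, *Irf4*, *Irf5*, *Irf8* and *Irf9* changed by -2.43, -3.07, -1.44, -13.3, -16.1 and -1.54 points. The levels for other transcript lengths were chosen after the data had been seen. *Irf4* rests on 160 to 374 fragments per library, and *Ifnb1* on 5 or fewer.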
